A study of Rattus norvegicus with 12 samples.

Results

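The uncoupling proteins and the genes of the thermogenic adipocyte program were followed in the epididymal fat pad, a visceral depot of white adipose tissue, of 12 Sprague-Dawley rats, all male. The set was a list of 10 genes, namely Ucp1, Ucp2, Ucp3, Ppargc1a, Ppargc1b, Prdm16, Dio2, Elovl3, Cox7a1 and Cox8b. Each gene was represented by the probe set that carries its symbol in the platform annotation, or by the brightest where there were several. In all, 8 of the 10 genes were measured, each by 1 probe set, among 14506 genes on the array. Prdm16 and Cox7a1 had no probe set under their own symbol and are not analysed here. The 4 rats labelled phase 2 and the 4 rats labelled phase 3 were fasted until that phase of fasting, and the other 4 rats were fed. Fasting was the only treatment, the rats were allotted to the groups at random, and each rat gave 1 array with no technical replicate. Age and the length of the fast are not given in the sources used here.

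Phase 2 of a long fast is the long stretch in which stored fat is the main fuel and protein is spared, and phase 3 is the late stage in which protein breakdown rises as stored fat runs low. Uncoupling proteins are carriers of the inner mitochondrial membrane. UCP1 lets protons return to the matrix without making ATP and so gives off heat in brown and beige adipocytes, whereas UCP2 occurs in many tissues, immune cells among them, and UCP3 is best known from skeletal muscle, where fasting raises it, and from brown fat. White fat of the epididymal pad holds few thermogenic adipocytes. Noradrenaline from sympathetic nerves switches the program on through beta-adrenergic receptors, cyclic AMP and protein kinase A, and the coactivator PGC-1alpha, encoded by Ppargc1a, is a target of that pathway and raises mitochondrial genes and Ucp1.

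The promoters of the 4 called members, and that of Ucp1, are printed because the text turns on these genes. Each line holds the 250 bases before the RefSeq start of the gene on the rat assembly GRCr8, on the gene's own strand and 5′ to 3′. Capitals mark matches to 3 motifs on either strand: the cyclic AMP response element TGACGTCA with its core TGACG, the nuclear receptor core AGGTCA, and the TATA box TATAAA.
Ucp2, chr1:164251123-164251372, plus strand: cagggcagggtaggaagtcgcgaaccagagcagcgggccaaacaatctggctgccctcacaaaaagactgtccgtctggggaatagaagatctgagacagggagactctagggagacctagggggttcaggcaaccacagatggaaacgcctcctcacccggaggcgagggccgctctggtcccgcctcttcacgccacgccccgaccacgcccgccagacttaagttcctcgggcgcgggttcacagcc
Ucp3, chr1:164227660-164227909, plus strand: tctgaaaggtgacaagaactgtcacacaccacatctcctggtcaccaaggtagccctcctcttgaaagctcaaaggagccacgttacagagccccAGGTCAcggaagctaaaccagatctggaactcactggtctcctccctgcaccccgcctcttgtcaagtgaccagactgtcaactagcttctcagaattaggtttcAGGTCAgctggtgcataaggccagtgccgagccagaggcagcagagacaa
Ppargc1a, chr14:63634058-63634307, plus strand: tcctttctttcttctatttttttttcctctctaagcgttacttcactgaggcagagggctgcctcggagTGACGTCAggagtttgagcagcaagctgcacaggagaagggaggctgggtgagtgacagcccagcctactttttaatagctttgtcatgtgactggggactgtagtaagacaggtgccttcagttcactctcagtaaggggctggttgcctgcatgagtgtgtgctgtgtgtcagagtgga
Ppargc1b, chr18:57131467-57131716, minus strand: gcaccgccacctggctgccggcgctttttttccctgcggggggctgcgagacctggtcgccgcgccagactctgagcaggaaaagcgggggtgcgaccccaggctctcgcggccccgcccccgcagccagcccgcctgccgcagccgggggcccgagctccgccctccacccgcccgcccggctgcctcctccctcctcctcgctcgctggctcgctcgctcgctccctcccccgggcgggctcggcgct
Ucp1, chr19:41721422-41721671, minus strand: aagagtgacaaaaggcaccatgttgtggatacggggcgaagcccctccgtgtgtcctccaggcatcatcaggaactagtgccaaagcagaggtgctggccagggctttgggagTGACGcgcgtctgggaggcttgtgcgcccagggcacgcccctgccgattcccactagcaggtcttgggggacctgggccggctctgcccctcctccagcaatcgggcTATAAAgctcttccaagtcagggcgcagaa
Ppargc1a held the whole TGACGTCA at positions -181 to -174, counted back from the base before the start, a motif present in 1.59% of 33469 promoter windows of this length. The core TGACG, which lies inside it, was in 18.2% of windows, and of the other members' promoters only that of Ucp1 had it, at -137 to -133. Ucp3 held AGGTCA at -155 to -150 and again at -50 to -45, a motif found in 14.1% of windows. TATAAA occurred in 12.9% of windows, and Ucp1 had it at -30 to -25. The windows of Ucp2 and Ppargc1b held none of these motifs. The 2 genes Ucp3 and Ucp2 are neighbours on chromosome 1, with no annotated gene between them in RefSeq. A match here describes letters only and does not show that a factor binds.

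Levels are log2 values after RMA, the deposited normalisation, and changes are 1 group's mean minus another's on that scale, with the model's standard error (SE), called at an adjusted p below 0.05. The array medians lay between 6.03 and 6.13 over all probe sets. Over the tested genes alone their group averages stood at -0.065 in phase 2 and -0.155 in phase 3 relative to fed rats, so centring the arrays raises every change by these amounts. Fat markers were present: Adipoq, which encodes adiponectin, averaged 13.09 ± 0.058 in phase 2, 11.63 ± 0.477 in phase 3 and 13.15 ± 0.019 in fed rats (SD, n = 4 each). The extraction protocol speaks of liver, and 10 hepatocyte genes averaged 4.94 to 5.21 per array in phase 2, 4.83 to 4.93 in phase 3 and 4.997 to 5.16 in fed rats. Alb, the albumin gene, was the bright exception among them, at 9.62 ± 1.03 in phase 2, 6.73 ± 1.4 in phase 3 and 8.33 ± 0.512 in fed rats (SD, n = 4 each). No detection calls were used. In their place, 53 olfactory receptor genes, best known from the olfactory epithelium, gave a rough idea of a dim signal, with means whose 10th and 90th percentiles were 2.83 and 5.25. Probe sets differ in how brightly they report, so this range is a guide and not a threshold.

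Ucp2, the widely expressed uncoupling protein, moved in opposite directions in the fasting phases. Its levels were 9.87, 9.64, 9.59 and 9.86 in the phase 2 rats, 9.07, 9.35, 8.92 and 9.06 in the phase 3 rats and 9.55, 9.50, 9.39 and 9.31 in the fed rats. Every phase 2 rat lay above every fed rat and every phase 3 rat, while phase 3 rat 2 overlapped the fed range. In phase 2 Ucp2 rose by 0.30 ± 0.104 relative to fed rats (1.23-fold, adjusted p = 0.0485). In phase 3 it fell by 0.34 ± 0.104 relative to fed rats (1.26-fold, adjusted p = 0.016) and by 0.64 ± 0.104 relative to phase 2 (1.55-fold, adjusted p = 0.000391). The rise in phase 2 sat at the threshold. It was no longer called without fed rat 1, 2, 3 or 4 (adjusted p = 0.0528, 0.0644, 0.113 and 0.138), without phase 2 rat 1, 2 or 4 (0.131, 0.0567 and 0.127) or without phase 3 rat 1 or 4 (0.0561 and 0.0608). The fall against fed rats was no longer called without fed rat 1 (adjusted p = 0.0514) or with centred arrays, where it was -0.18 (adjusted p = 0.136), and the fall against phase 2 was called in each of the 19 alternatives run.

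Ucp3, the uncoupling protein of muscle and brown fat, was lower in phase 3. It stood at 8.0, 7.81, 8.61 and 8.45 in the phase 2 rats, at 8.11, 6.22, 7.69 and 7.66 in the phase 3 rats and at 8.81, 8.62, 8.75 and 8.67 in the fed rats. The fed rats lay close together, above every fasted rat, and phase 3 rat 2 lay far below the others. Relative to fed rats Ucp3 fell by 1.29 ± 0.306 in phase 3 (2.45-fold, adjusted p = 0.00309), and without phase 3 rat 2 the change was -0.89 and still called. In phase 2 the change was -0.49 ± 0.306 (95% interval -1.15 to 0.17, adjusted p = 0.287), which did not pass the test although the groups did not overlap. That difference was called when phase 3 rat 2 was left out of the shared spread (adjusted p = 0.0369) and when only the 2 groups were fitted (adjusted p = 0.0318). Phase 3 against phase 2 gave -0.80 ± 0.306 (adjusted p = 0.0676), which became -1.03 and was called without phase 3 rat 1 (adjusted p = 0.0199), and -0.40 without phase 3 rat 2.

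Ucp1, the heat-producing carrier itself, stayed within the range of the olfactory receptor genes in every rat. Its mean level was 4.26 ± 0.182 in phase 2, 4.36 ± 0.196 in phase 3 and 4.18 ± 0.105 in fed rats (SD, n = 4 each), and 40 of the 53 olfactory receptor genes were dimmer over the 12 arrays. The change was 0.08 ± 0.112 in phase 2 (95% interval -0.16 to 0.32, adjusted p = 0.681) and 0.19 ± 0.112 in phase 3 (95% interval -0.06 to 0.43, adjusted p = 0.197) relative to fed rats, and 0.11 ± 0.112 in phase 3 relative to phase 2 (adjusted p = 0.536). With centred arrays the phase 3 difference from fed rats was 0.34 and was called (adjusted p = 0.0205). The olfactory receptor genes moved the same way, since their mean per array was 3.71 to 3.76 in phase 2, 3.81 to 3.89 in phase 3 and 3.68 to 3.73 in fed rats.

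**Figure D1:**
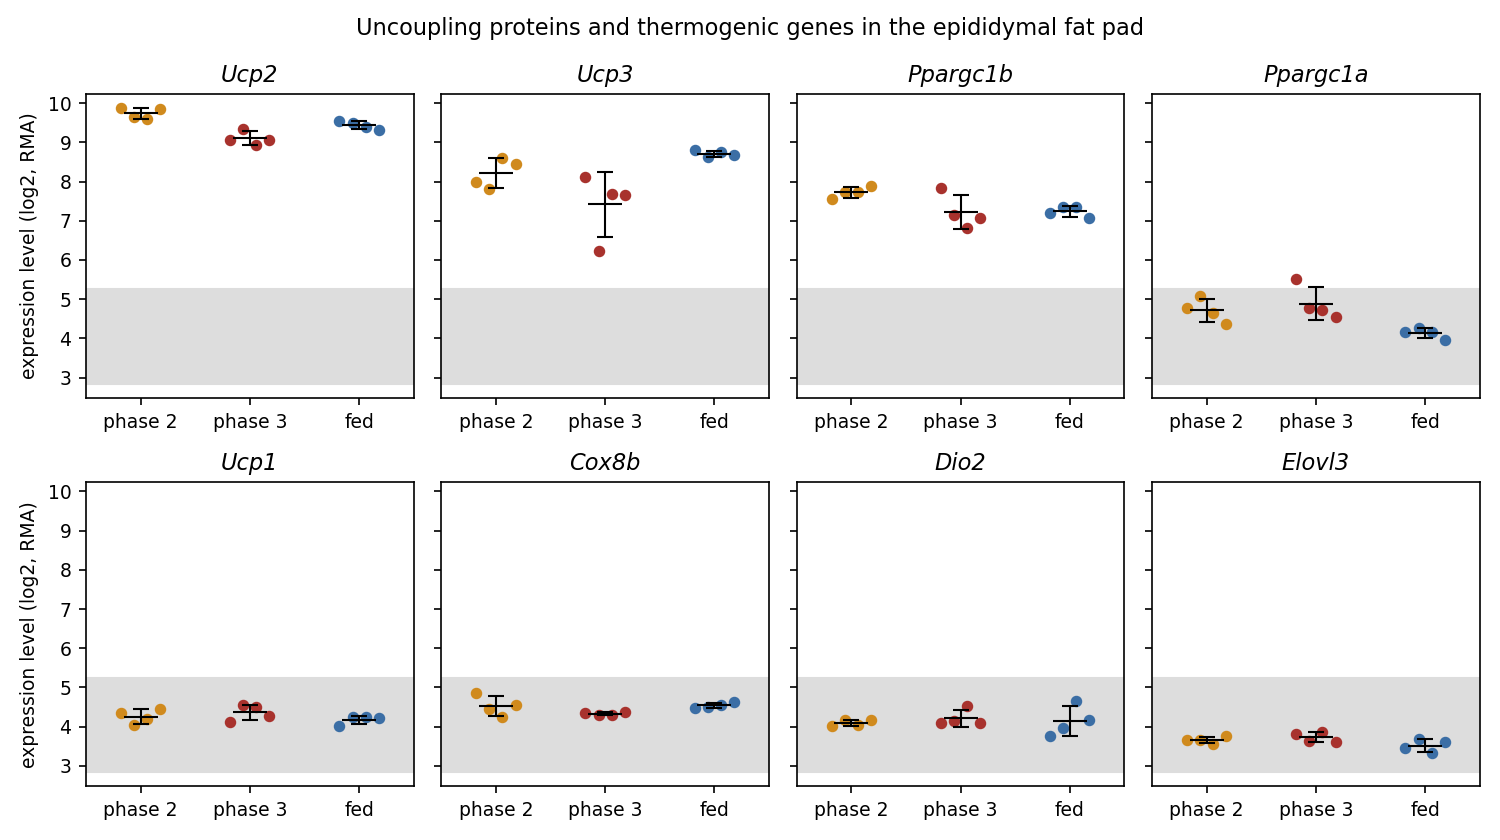
Expression level (log2, RMA) of the 8 measured genes, 1 point per rat, in phase 2, phase 3 and fed rats, with horizontal bars for the group mean and error bars for the SD (n = 4); the grey band spans the 10th to 90th percentile of 53 olfactory receptor genes, 2.83 to 5.25. Ucp2, Ucp3 and Ppargc1b lie above the band in every rat, and the other genes lie in it except for Ppargc1a in phase 3 rat 1, at 5.52.

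Ppargc1a, the gene of PGC-1alpha, was higher in both phases of fasting. Its levels were 4.76, 5.08, 4.66 and 4.38 in the phase 2 rats, 5.52, 4.77, 4.73 and 4.54 in the phase 3 rats and 4.16, 4.26, 4.16 and 3.96 in the fed rats. Every fasted rat lay above every fed rat, and the fasting phases overlapped. Relative to fed rats Ppargc1a rose by 0.59 ± 0.186 in phase 2 (1.5-fold, adjusted p = 0.0323) and by 0.75 ± 0.186 in phase 3 (1.69-fold, adjusted p = 0.00403), while phase 3 against phase 2 gave 0.17 ± 0.186 (95% interval -0.23 to 0.57, adjusted p = 0.554). The phase 3 rise was called in each of the 18 alternatives that measured it. The phase 2 rise was not called with quantile normalisation (adjusted p = 0.074), without fed rat 1, 3 or 4 (0.0615, 0.0604 and 0.0919) or without phase 2 rat 1, 2 or 3 (0.0711, 0.109 and 0.053). Its level was low throughout, with 43 of the 53 olfactory receptor genes dimmer. Of those 53 genes, 1 was called higher in phase 2 and 7 in phase 3 relative to fed rats, and none lower. Of all genes, 9.66% and 21.1% were called higher.

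Ppargc1b, the gene of the related coactivator PGC-1beta, had its highest mean in phase 2. It measured 7.55, 7.74, 7.73 and 7.89 in the phase 2 rats, 7.84, 7.15, 6.83 and 7.06 in the phase 3 rats and 7.19, 7.36, 7.36 and 7.08 in the fed rats. All phase 2 rats lay above all fed rats, and phase 3 rat 1 lay among the phase 2 rats. The phase 2 difference from fed rats was 0.48 ± 0.168 (95% interval 0.12 to 0.84, adjusted p = 0.0504), just outside the threshold. It was called without phase 3 rat 1 or 3 (adjusted p = 0.00371 and 0.0268), with centred arrays (0.028), with quantile normalisation (0.0215), with an intensity trend (0.046), without the dimmest genes (0.0376) and with only the 2 groups (0.0027). In phase 3 Ppargc1b fell by 0.51 ± 0.168 relative to phase 2 (1.42-fold, adjusted p = 0.0362), and the change against fed rats was -0.03 ± 0.168 (95% interval -0.39 to 0.33, adjusted p = 0.91). The fall ended with centred arrays (adjusted p = 0.0725), quantile normalisation (0.0559) and only the 2 groups (0.0722), and without phase 2 rat 2, 3 or 4 (0.0719, 0.0698 and 0.0962) or phase 3 rat 2, 3 or 4 (0.0703, 0.102 and 0.0984), whereas without phase 3 rat 1 it was -0.71 (adjusted p = 0.000354).

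The brown fat genes Dio2, Elovl3 and Cox8b were dim and none of them passed the test. Dio2 encodes the deiodinase that makes active thyroid hormone inside brown adipocytes. It averaged 4.10 ± 0.0736 in phase 2, 4.22 ± 0.217 in phase 3 and 4.14 ± 0.377 in fed rats (SD, n = 4 each), and its changes against fed rats were -0.04 ± 0.157 in phase 2 (95% interval -0.38 to 0.30, adjusted p = 0.9) and 0.08 ± 0.157 in phase 3 (95% interval -0.26 to 0.41, adjusted p = 0.72). Elovl3, a fatty acid elongase strongly raised by cold in brown fat, averaged 3.66 ± 0.0773 in phase 2, 3.73 ± 0.126 in phase 3 and 3.52 ± 0.161 in fed rats (SD, n = 4 each). Its phase 3 change against fed rats was 0.21 ± 0.0939 (95% interval 0.01 to 0.41, adjusted p = 0.0809), and it was called with centred arrays, at 0.37 (adjusted p = 0.00789), and without fed rat 2 (0.0388), while phase 2 against fed gave 0.14 ± 0.0939 (adjusted p = 0.323). Cox8b, the cytochrome c oxidase subunit of heart, muscle and brown fat, averaged 4.53 ± 0.254 in phase 2, 4.33 ± 0.0448 in phase 3 and 4.54 ± 0.0677 in fed rats (SD, n = 4 each). Its phase 3 rats, at 4.36, 4.31, 4.28 and 4.38, all lay below the fed rats, at 4.47, 4.51, 4.56 and 4.63. The change was -0.21 ± 0.107 (95% interval -0.44 to 0.02, adjusted p = 0.127), which was called with quantile normalisation, at -0.32 (adjusted p = 0.0421), and with only the 2 groups (0.0447). Phase 3 against phase 2 was -0.19 ± 0.107 for Cox8b (adjusted p = 0.206), and -0.29 and called without phase 2 rat 3 (adjusted p = 0.0472).

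Counted over the measured members, 2 of 8 were called in phase 2 against fed, both higher, where 25.2% of all genes were called, 9.66% higher and 15.5% lower. In phase 3 against fed 3 of 8 were called, 1 higher and 2 lower, where 45.4% of all genes were called, 21.1% higher and 24.3% lower. Phase 3 against phase 2 gave 2 of 8, both lower, where 27.9% of all genes were called and 15.1% were called lower. Counted in either direction, the members' shares are near or below those of the whole array, whereas 2 of 8 called higher in phase 2 against fed, and 2 of 8 called lower in phase 3 against phase 2, are larger shares than over all genes but rest on 2 genes each. Values did not overlap between groups for 4 members in phase 2 against fed (3 higher and 1 lower, where 31% of all genes did so, 12.6% higher and 18.4% lower), for 3 in phase 3 against fed (1 higher and 2 lower, where 41.9% did so, 19.2% higher and 22.7% lower) and for 1 in phase 3 against phase 2 (lower, where 26.3% did so, 14% lower). With centred arrays phase 3 against fed gave 3 higher and 1 lower, the rises being Ppargc1a, Ucp1 and Elovl3. Centring also moved the median change over all genes to 0.21, where the members' median was 0.18. The shares of all genes given above are for uncentred arrays and are no measure for that count. The comparisons with fed rats share the same 4 fed rats.

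**Figure D2:**
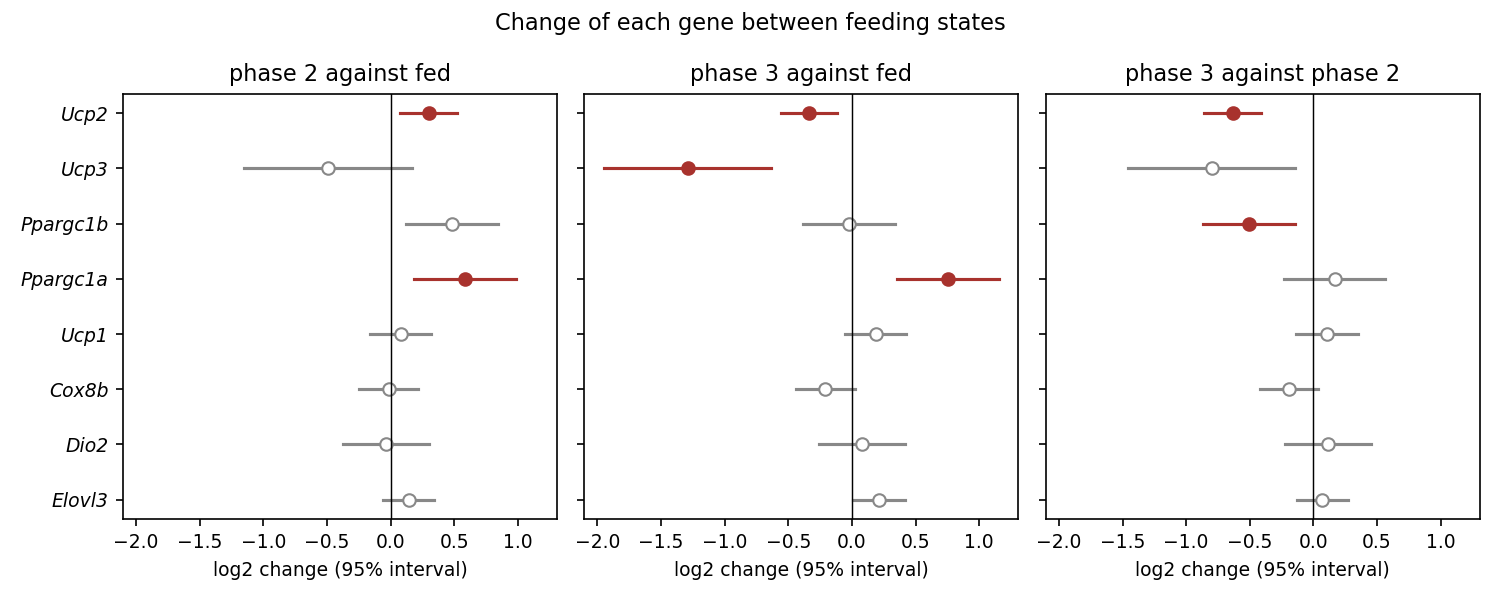
Log2 change of each gene in each of the 3 comparisons between feeding states, with 95% intervals; filled red points passed an adjusted p below 0.05 over 14506 genes and open grey points did not. Ucp3 has the widest interval, and Ucp2 is the only gene called in all 3 panels.

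Adipocyte markers moved beside these changes. Of 13 such genes 2 were higher and 2 lower in phase 2, and 12 were lower and none higher in phase 3, relative to fed rats. Their mean per array was 10.97 to 11.12 in phase 2, 9.42 to 10.18 in phase 3 and 11.35 to 11.37 in fed rats, and their summed linear signal was 48568 to 51481 in phase 2, 19024 to 31499 in phase 3 and 46815 to 48585 in fed rats. The median change of these markers was -0.03 in phase 2 and -1.52 in phase 3. In phase 2 the 2 lower were Lep, the leptin gene, by 4.12, and Slc2a4, by 1.88, and both pull the mean down. The 2 higher were Pnpla2, by 0.53, and Acvr1c, by 1.11. Lep fell by 6.4 in phase 3. By the marker mean, the highest of the phase 3 rats was rat 1, which was also the highest of its group for Ppargc1a, Ppargc1b and Ucp3. Ucp2 was highest in phase 3 rat 2. The lowest marker mean was in phase 3 rat 4, which was lowest of its group for Ppargc1a but not for Ucp2, Ucp3 or Ppargc1b. In bulk tissue, fewer cells of a type and less RNA per cell cannot be told apart. Of 12 skeletal muscle markers, 1 was lower in phase 2 and 2 in phase 3, none higher. The lower ones were Tnnt3, which fell by 1.39 ± 0.127 in phase 3, and Myl1, which fell by 0.71 ± 0.108 in phase 2 and by 1.19 ± 0.108 in phase 3. With centred arrays 1 was higher and 1 lower in phase 2, and 4 higher and 2 lower in phase 3. In that setting the phase 3 median was 0.25 for the muscle markers and 0.21 over all genes. The muscle markers' mean per array was 5.41 to 5.58 in phase 2, 5.27 to 5.71 in phase 3 and 5.45 to 5.6 in fed rats, and their summed signal was 733 to 808 in phase 2, 586 to 751 in phase 3 and 781 to 847 in fed rats. Macrophages, which also express Ucp2, were followed by 14 markers, of which 2 were higher and 1 lower in phase 2 and 4 higher and 4 lower in phase 3, or 6 higher and 1 lower in phase 3 with centred arrays. Their mean per array was 9.38 to 9.66 in phase 2, 9.32 to 9.93 in phase 3 and 9.29 to 9.58 in fed rats. Smooth muscle markers were higher in 9 of 9 cases in phase 2 and in 8 of 9 in phase 3, with means per array of 9.12 to 9.97 in phase 2, 9.05 to 9.68 in phase 3 and 8.09 to 8.70 in fed rats, and of 8 endothelial markers 6 and 4 were higher. The part of these cell types in the results was not tested.

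**Figure D3:**
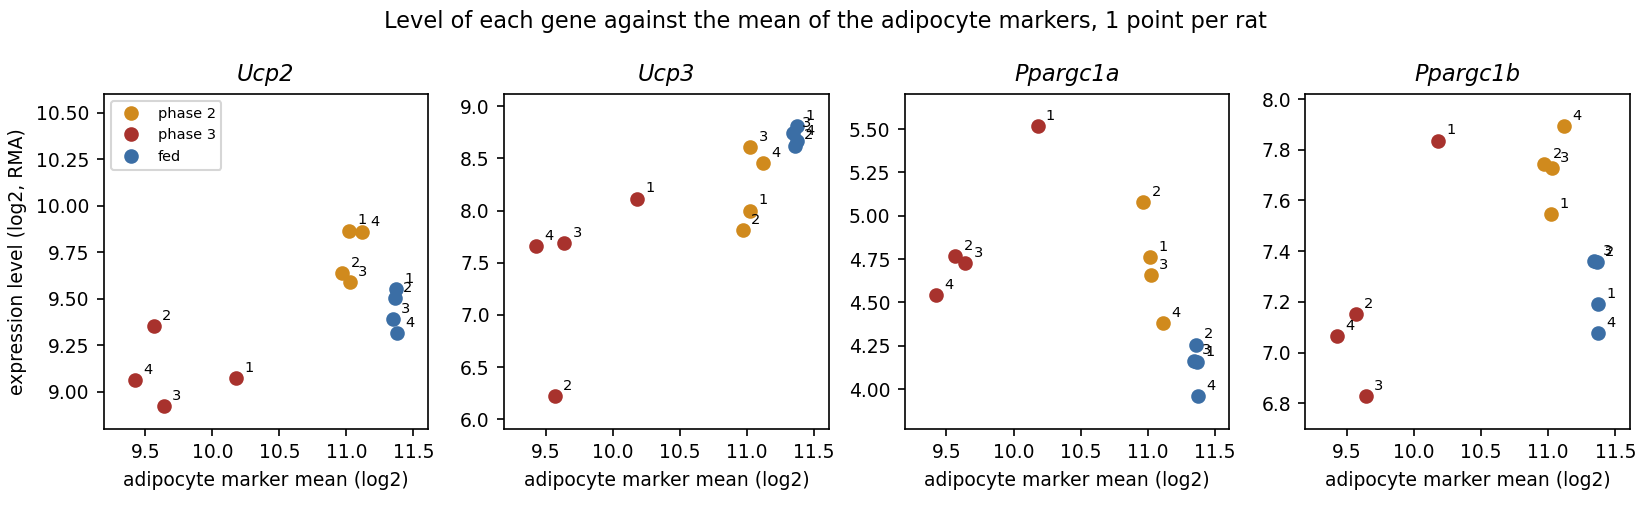
Level of Ucp2, Ucp3, Ppargc1a and Ppargc1b (log2, vertical axes differ) against the mean of 13 adipocyte markers (log2), 1 point per rat, numbered within its group, for phase 2, phase 3 and fed rats. The phase 3 rats lie at adipocyte marker means of 9.42 to 10.18, to the left of all other rats, and phase 3 rat 1 is the rightmost of them. The mean includes Lep and Slc2a4, which fell in phase 2 while the median marker changed by -0.03.

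Paralogs were also compared within each array, where scaling of the array cancels. The level of Ucp3 minus that of Ucp2 averaged -1.52 ± 0.414 in phase 2, -1.68 ± 0.985 in phase 3 and -0.73 ± 0.111 in fed rats (SD, n = 4 each). Relative to fed rats it changed by -0.79 in phase 2 and by -0.95 in phase 3, with no overlap, and the phase 3 value was -0.47 without phase 3 rat 2. Phase 3 against phase 2 gave -0.16 (exact permutation p = 0.914). Ppargc1a minus Ppargc1b averaged -3.01 ± 0.378 in phase 2, -2.33 ± 0.176 in phase 3 and -3.11 ± 0.0659 in fed rats (SD, n = 4 each). It was 0.78 higher in phase 3 than in fed rats and 0.68 higher in phase 3 than in phase 2, again with no overlap, and 0.11 higher in phase 2 than in fed rats (exact permutation p = 0.6). Cox8b minus Cox8a, the subunit of most other tissues, was 0.78 higher in phase 3 than in fed rats, without overlap, 0.43 higher in phase 2 than in fed rats (exact permutation p = 0.0571) and 0.36 higher in phase 3 than in phase 2 (exact permutation p = 0.0857). The exact two-sided permutation p was 0.0286 for each of these 5 differences without overlap, the smallest that 4 rats against 4 allow. Adjusted over the 9 tests it was 0.0514, so none passed. With so few rats, no single difference could pass unless several others also reached the smallest p. The adjusted value therefore cannot decide about any 1 pair. Cox8b and Ppargc1a lay in the range of the olfactory receptor genes, where a fall could hardly be seen. Cox8a itself fell by 0.99 in phase 3 relative to fed rats. The Cox8b minus Cox8a values are therefore not read as unequal change of the transcripts. The Ppargc1a minus Ppargc1b value in phase 3 against phase 2 carries the same limit, since Ppargc1b fell by 0.51. In phase 3 against fed rats Ppargc1a rose by 0.75 and Ppargc1b changed by -0.03. That limit does not apply there, though the difference did not pass after adjustment.

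The list counts from here on stand beside shares over all genes of 9.66% higher and 15.5% lower in phase 2 against fed. In phase 3 against fed these shares were 21.1% higher and 24.3% lower. They are for the levels as deposited and are no measure for counts after centring or quantile normalisation. Centring moved the median change over all genes to 0.07 in phase 2 and 0.21 in phase 3, relative to fed rats. Among the 6 measured carriers related to the uncoupling proteins, 3 were lower and none higher in phase 2, and 3 were lower and 1 higher in phase 3, relative to fed rats. Their median change was -0.13 in phase 2 and -0.19 in phase 3, against 0.01 and 0.05 over all genes, and centring gave 3 lower and 1 higher in phase 2 and 3 lower and 2 higher in phase 3. Slc25a5 and Slc25a4 encode ADP/ATP carriers, which exchange ATP for ADP and can also leak protons. Slc25a5 fell by 0.69 ± 0.0821 in phase 2 and by 0.76 ± 0.0821 in phase 3 (adjusted p = 3.97e-05 and 3.32e-06). Slc25a4 fell by 0.30 ± 0.0746 in phase 2 (adjusted p = 0.00844, and 0.0782 with quantile normalisation) and by 0.34 ± 0.0746 in phase 3 (adjusted p = 0.00163). Slc25a30, an uncoupling-protein-like carrier, fell by 0.71 ± 0.17 in phase 2 and fell by 1.58 ± 0.17 in phase 3 relative to fed rats, and fell by 0.86 ± 0.17 in phase 3 relative to phase 2 (adjusted p = 0.0067, 3.41e-06 and 0.00165).

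The cytochrome c oxidase subunits other than the members were mostly lower in phase 3. Of 12 measured, 5 were lower and 1 higher in phase 2 and 8 lower and none higher in phase 3, relative to fed rats, with medians of -0.33 and -0.50, and centring gave 4 lower and 1 higher and 6 lower and 2 higher. Cox5b fell by 0.67 ± 0.0915 in phase 2 and by 0.98 ± 0.0915 in phase 3, and Cox6a1 by 0.53 ± 0.0874 and by 0.91 ± 0.0874, with adjusted p of 0.000534 or less. Cox8a, the partner of Cox8b in the comparison above, averaged 11.36 ± 0.129 in phase 2, 10.81 ± 0.12 in phase 3 and 11.80 ± 0.156 in fed rats (SD, n = 4 each), and fell by 0.44 ± 0.0984 and by 0.99 ± 0.0984 relative to fed rats (adjusted p = 0.00434 and 1.56e-06). Of 3 measured elongases other than Elovl3, 2 fell in each phase. Elovl6, which lengthens palmitate, fell by 2.53 ± 0.201 in phase 2 and fell by 2.37 ± 0.201 in phase 3 (adjusted p = 1.22e-06 and 3.32e-07). Elovl5, an elongase of polyunsaturated fatty acids, fell by 0.72 ± 0.117 and by 1.22 ± 0.117, and Elovl2 gave -0.09 and 0.18, neither called, though its phase 3 change was called with centred arrays.

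PGC-1 partners and genes of mitochondrial biogenesis were counted in all 3 comparisons. Of 18 measured, 3 were higher and 3 lower in phase 2 relative to fed rats, 7 higher and 2 lower in phase 3 relative to fed rats, and 9 higher and 1 lower in phase 3 relative to phase 2. The medians of these changes were -0.13, 0.15 and 0.24, against 0.01, 0.05 and 0.03 over all genes. Of all genes, 21.1% were called higher in phase 3 against fed and 12.8% in phase 3 against phase 2. With centred arrays the counts were 4 higher and 2 lower, 11 and 2, and 11 and 1. The centred medians were -0.07, 0.30 and 0.325, against 0.07, 0.21 and 0.12 over all genes. With quantile normalisation the counts were 4 and 3, 9 and 2, and 10 and 1. Prkaa1, a catalytic subunit of the energy sensor AMPK, rose by 0.94 ± 0.0796 in phase 2 and by 1.17 ± 0.0796 in phase 3 (adjusted p = 1.96e-06 and 3.61e-08). Prkaa2, the other catalytic subunit, is named after its values were seen. It averaged 6.51 ± 0.334 in phase 2, 7.11 ± 0.617 in phase 3 and 7.45 ± 0.209 in fed rats (SD, n = 4 each). Its phase 2 rats all lay below the fed rats, and its phase 3 rats overlapped them. Esrrg, an orphan nuclear receptor that PGC-1 coactivators bind, fell by 1.21 ± 0.106 and by 1.18 ± 0.106 (adjusted p = 2.78e-06 and 6.16e-07). Kat2a, an acetyltransferase that restrains PGC-1alpha, fell by 0.69 ± 0.084 in phase 3 (adjusted p = 1.02e-05), and its phase 2 change was -0.21 (adjusted p = 0.0847).

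Adrenergic and cyclic AMP genes were mixed. Of 20 measured, 4 were higher and 3 lower in phase 2 and 4 higher and 8 lower in phase 3, relative to fed rats, and centring turned the counts to 6 higher and 3 lower and to 6 and 6. The median change was 0.10 in phase 2 and -0.09 in phase 3. The second was 0.07 after centring, against 0.21 over all genes. Nr4a3, an orphan nuclear receptor induced by cyclic AMP, had levels of 6.83, 7.50, 7.51 and 6.71 in the phase 2 rats and 10.39, 9.03, 9.50 and 9.30 in the phase 3 rats, against 5.24, 5.32, 5.56 and 5.22 in the fed rats. No group overlapped another. It rose by 1.80 ± 0.253 in phase 2 (3.49-fold, adjusted p = 0.000148) and by 4.22 ± 0.253 in phase 3 (18.6-fold, adjusted p = 1.14e-08) relative to fed rats. Nr4a1, also on this list and named after its values were seen, had groups that overlapped. It averaged 7.18 ± 0.467 in phase 2, 7.38 ± 0.637 in phase 3 and 6.98 ± 0.426 in fed rats (SD, n = 4 each). A pair of protein kinase A genes fell in phase 3. Prkar2b, the regulatory subunit abundant in fat, fell by 2.32 ± 0.157 and Prkaca, a catalytic subunit, by 1.00 ± 0.0812 (adjusted p = 3.36e-08 and 2.04e-07), and in phase 2 they changed by -0.28 (adjusted p = 0.232) and -0.63 (adjusted p = 7.77e-05). Adrb3, the beta-adrenergic receptor of fat cells, is named after its values were seen. It averaged 10.10 ± 0.197 in phase 2, 8.12 ± 0.671 in phase 3 and 9.51 ± 0.387 in fed rats (SD, n = 4 each), with a change of 0.59 ± 0.27 in phase 2 (adjusted p = 0.138) and a fall of 1.39 ± 0.27 in phase 3 (adjusted p = 0.000694) relative to fed rats.

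Other genes of brown and beige adipocytes gave 4 lower and none higher of 20 in phase 2, and 6 lower and 3 higher in phase 3, relative to fed rats, with 5 lower and 7 higher in phase 3 after centring. Their median change was -0.10 in phase 2 and -0.055 in phase 3. The second was 0.10 after centring, against 0.21 over all genes. Counted in either direction, 25.2% of all genes were called in phase 2 and 45.4% in phase 3, relative to fed rats. The share of this list called was near or below these. S100b, an S100 protein that brown fat of mice secretes to promote innervation, fell by 1.30 ± 0.102 in phase 2 and fell by 2.98 ± 0.102 in phase 3 (7.9-fold, adjusted p = 1.1e-06 and 1.02e-10). Pm20d1, an enzyme that makes N-acyl amino acids, fell by 0.56 ± 0.129 and by 1.77 ± 0.129 (adjusted p = 0.00545 and 6.77e-08). Otop1, a proton channel of brown fat, fell by 1.17 ± 0.226 and by 1.54 ± 0.226 (adjusted p = 0.00165 and 6.2e-05). Regulators of the brown program counted 5 higher and 4 lower of 17 in phase 2, and 6 higher and 5 lower in phase 3, with a median of 0.16 in each. Centring gave 5 higher and 2 lower in phase 2 and 9 higher and 5 lower in phase 3, and quantile normalisation 5 and 2 in phase 2 and 7 and 5 in phase 3. Cebpd, an early factor of adipogenesis, rose by 0.35 ± 0.111 in phase 2 (adjusted p = 0.0313, and up to 0.103 without fed rat 1, 3 or 4 or, in phase 2, rat 2 or 4) and by 1.504 ± 0.111 in phase 3 (adjusted p = 7.96e-08). Klf11, a partner of PPARgamma in human beige cells, rose by 0.90 ± 0.117 and by 1.29 ± 0.117 (adjusted p = 7.97e-05 and 6.21e-07). Zfp423, which holds white adipocytes back from the thermogenic state in mice, fell by 0.70 ± 0.113 and by 1.29 ± 0.113 (adjusted p = 0.000465 and 4.64e-07). The 5 lower in phase 3 also include Bmp7, Cebpa and Ebf2, named after their values were seen. These fell by 1.41, 1.19 and 0.93 in phase 3 relative to fed rats (adjusted p = 2.68e-06, 1.44e-05 and 4.77e-05). In phase 2 they changed by -1.01, -0.03 and -0.14, and only Bmp7 was called (adjusted p = 0.000213).

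Thyroid hormone genes, the setting of Dio2, gave 2 higher and 1 lower of 8 in phase 2 relative to fed rats. In phase 3 they gave 2 and 2, and the medians were 0.11 and -0.02. Centring gave 3 higher and 1 lower in phase 3, with a median of 0.14, against 0.21 over all genes. Slc16a10, a thyroid hormone and aromatic amino acid transporter, rose by 1.93 ± 0.135 in phase 2 and by 0.85 ± 0.135 in phase 3 (adjusted p = 3.52e-07 and 0.000123). Thra, the alpha receptor, changed by 0.17 in phase 2 (adjusted p = 0.2) and fell by 0.59 ± 0.0893 in phase 3 (adjusted p = 7.71e-05), and Ncoa1, a receptor coactivator, rose by 0.67 ± 0.0865 and by 0.53 ± 0.0865 (adjusted p = 7.74e-05 and 0.000147). Heat pathways that do not use UCP1 gave 2 higher and 3 lower of 14 in phase 2, and 3 and 5 in phase 3. Their medians were 0.06 and -0.08. Centring turned the counts to 3 higher and 2 lower and to 5 higher and 4 lower. The centred medians were 0.13 and 0.075, against 0.07 and 0.21 over all genes. The creatine-making enzyme gene Gamt fell by 1.06 ± 0.145 and fell by 1.58 ± 0.145 (adjusted p = 0.000116 and 7e-07), Gpd1, the cytosolic glycerol-3-phosphate dehydrogenase, fell by 0.54 ± 0.133 and by 0.97 ± 0.133 (adjusted p = 0.00805 and 3.41e-05), and Ckb, the creatine kinase, changed by -0.26 (adjusted p = 0.117) and fell by 0.80 ± 0.112 in phase 3 (adjusted p = 4.11e-05). Of 5 measured secreted factors, 3 were higher and none lower in phase 2, and 2 higher and none lower in phase 3, with medians of 0.34 and 0.45. Angptl4, an inhibitor of lipoprotein lipase, rose by 1.06 ± 0.145 and by 0.61 ± 0.145 (adjusted p = 0.000127 and 0.00321), and Metrnl, a secreted factor linked to browning in mice, rose by 0.34 ± 0.103 and by 0.72 ± 0.103 (adjusted p = 0.0249 and 4.67e-05). Vegfa, the angiogenic factor, rose by 0.41 ± 0.118 in phase 2 (adjusted p = 0.0192) and changed by -0.07 in phase 3 (adjusted p = 0.648). The phase 2 calls of Metrnl (without fed rat 1, 3 or 4 or, in phase 2, rat 2 or 3, up to 0.087) and Vegfa (without fed rat 4 or, in phase 2, rat 1 or 2, up to 0.0691) ended when single rats were left out.

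**Figure D4:**
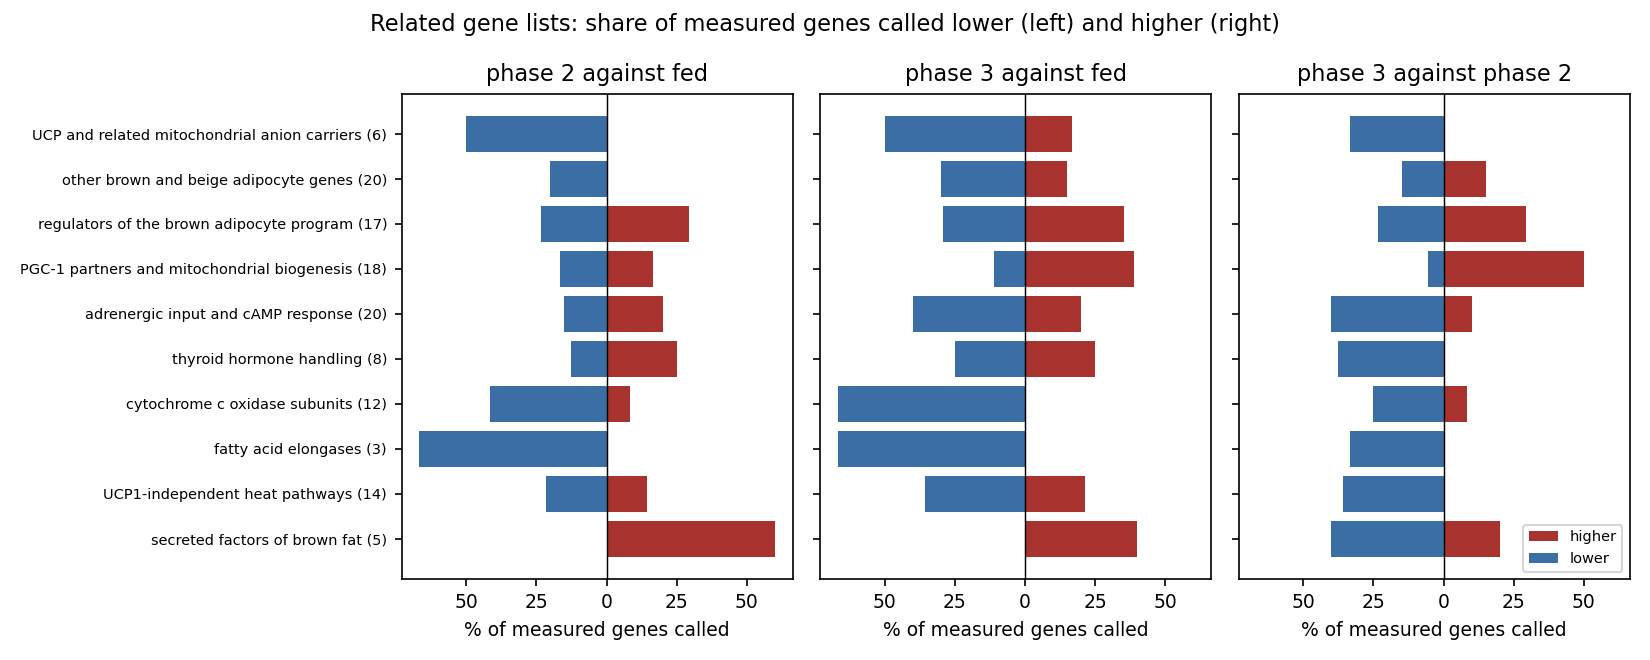
Share of measured genes called lower (left, blue) and higher (right, red) in 10 lists of related genes, with the number measured in parentheses, in the 3 comparisons between feeding states. Of the 12 cytochrome c oxidase subunits 8 were lower in phase 3 against fed, where 24.3% of all genes were lower. Of the 18 PGC-1 partners and biogenesis genes 9 were higher in phase 3 against phase 2, where 12.8% of all genes were higher.

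For each called member the 3 genes with the most similar pattern over the 12 arrays were listed, as a description, since all points share the 3 groups. Ucp2 went most closely with Cbr1, a carbonyl reductase (Pearson r = 0.96, and 0.81 after the group means were removed), Tmem178a (0.94 and 0.70) and Ajuba (0.93 and 0.62). Ucp3 went with Txnrd2, the mitochondrial thioredoxin reductase (0.95 and 0.88), Agpat2, an acyltransferase of triglyceride synthesis (0.93 and 0.89), and Eno3, the muscle enolase (0.93 and 0.88). Ppargc1a went with Syt1 (0.94 and 0.88), Scp2, a sterol carrier protein (0.94 and 0.86), and Nsd3 (0.94 and 0.85). Ppargc1b went with Nup188 (0.94 and 0.91), Lpar6 (0.91 and 0.90) and Abhd5, the coactivator of adipose triglyceride lipase (0.90 and 0.90).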

How the data were processed

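Epididymal fat of 12 rats (4 fed, 4 in phase 2, 4 in phase 3 of fasting) was hybridised to Affymetrix Rat Gene 1.0 ST arrays, 1 per rat. The authors deposited log2 levels of each probe set after RMA, and GCOS and Affymetrix Expression Console 1.1 are also named, per the submitters' processing notes. The extraction protocol speaks of liver, whereas the other labels name white adipose tissue, and the tissue was taken as adipose. Groups came from the sample titles. The number of arrays limits the precision.

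Of 29215 probe sets, 15310 carried 1 gene symbol, 323 several and 13582 none, and only those with 1 were used, as 14506 genes with the brightest probe set each. Of these, 14481 matched RefSeq by gene identifier. All arrays entered 1 model with a mean per group in limma 3.58.1 (R 4.3.3), with Benjamini-Hochberg adjustment over all genes. Pairs of paralogs were compared by two-sided exact permutation tests adjusted over 9 tests. A pair of Cox7a1 with Cox7a2 was planned and not computed, since Cox7a1 had no probe set, so 9 tests stand in place of 12. The alternatives were array centring, quantile normalisation, an intensity trend with a robust prior, leaving out the 40% dimmest genes, the mean of a gene's probe sets, only the 2 groups compared, the replicate number as a block, and leaving out each rat. Only the limma step was tested on simulated data, for phase 2 against fed, with 200 of 14506 genes changed. It recovered 92% of changes of 1 and 61% of changes of 0.5 on the log2 scale, with 14 false calls. The real data held far more called genes, and the permutation tests were not simulated.

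The named genes were the members, the 3 genes with the smallest adjusted p from each related list (every gene of a list with at most 4 measured), and the 3 genes most correlated with each called member. The members, lists and tests were chosen with earlier results of these data known.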

Additional observations from a re-analysis of the deposited data

Results flagged for a closer look

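Levels of the 8 genes were checked for single rats that stand far from the other 3 of their group, and 2 of 24 groups held one, where chance gives about 1 in 20. Ucp1 in fed rat 1 was at 4.02, below the other fed rats at 4.21 to 4.24, with a gap of 0.871 of the group's range. Dio2 in phase 3 rat 3 was at 4.54, above the other phase 3 rats at 4.08 to 4.15, with a gap of 0.844 of the range. Both genes lay among the olfactory receptor genes in level, and neither was called in any comparison.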

How the results depend on the processing

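No member's called change turned its direction in the alternatives run. The number of members called in phase 2 against fed was 2, and it was 4 with only the 2 groups compared, 1 with the replicate block and between 0 and 3 when single rats were left out. In phase 3 against phase 2 it was 2, and it was 1 with centred arrays, 1 with quantile normalisation, 1 with only the 2 groups compared and between 1 and 3 when single rats were left out. In phase 3 against fed it was 3 and stayed between 2 and 4. The cause was not tested. The genes called over the array numbered 2850 to 4354, 5660 to 8785 and 3347 to 4798 in the comparisons of phase 2 with fed, of phase 3 with fed and of phase 3 with phase 2, and the share of calls that were higher was 38.4%, 46.5% and 45.8%, or 53%, 69.6% and 64.9% with centred arrays and 49.7%, 53.3% and 51.2% with quantile normalisation. The replicate numbers share no stated litter or day, and same-numbered rats correlated at -0.155 to 0.188 after group means were removed, so they were not treated as pairs. The replicate block gave 3539, 6526 and 3995 genes called, ended the calls of Ucp2 in phase 2 against fed (adjusted p = 0.0506) and Ppargc1b in phase 3 against phase 2 (0.0563), and called Ucp3 in phase 3 against phase 2 (0.0316). Leaving out the dimmest genes removes Ucp1, Ppargc1a, Dio2, Elovl3 and Cox8b. Their low signal limits what can be seen of them.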

Other observations

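Some related genes outside the naming rule are given as values, chosen after those values were seen. Irf4, a transcription factor that works with PGC-1alpha in thermogenic fat of mice, had levels of 8.94, 9.43, 7.52 and 8.37 in the phase 2 rats, 10.99, 6.10, 10.67 and 10.37 in the phase 3 rats and 6.15, 6.25, 5.97 and 6.33 in the fed rats. Phase 3 rat 2, the rat with the lowest Ucp3, lay within the fed range, and the other fasted rats all lay above it. Irf4 rose by 3.36 ± 0.808 in phase 3 (adjusted p = 0.00344) and by 2.39 ± 0.808 in phase 2 (adjusted p = 0.0438, between 7.59e-05 and 0.124 over 19 alternatives, of which 10 ended the call, among them leaving out each fed rat, phase 2 rat 1, 2 or 4, or phase 3 rat 4) relative to fed rats.

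The phosphodiesterases, which break down cyclic AMP, differed in course. Pde3b, the form that insulin activates in fat cells, averaged 11.47 ± 0.132 in phase 2, 10.17 ± 0.509 in phase 3 and 10.12 ± 0.149 in fed rats (SD, n = 4 each). It rose by 1.35 ± 0.19 in phase 2 (adjusted p = 0.000149), and its phase 3 change was 0.05 ± 0.19 (adjusted p = 0.853). Pde4d rose by 0.93 ± 0.172 in phase 2 and by 1.4 ± 0.172 in phase 3 (adjusted p = 0.0012 and 1.16e-05). Of 8 sympathetic nerve markers, Npy rose by 0.90 ± 0.263 in phase 2 (adjusted p = 0.0214, and up to 0.0701 without fed rat 3 or 4 or, in phase 2, rat 2). Its phase 3 change was 0.30 (adjusted p = 0.378). Gap43, a growth cone protein, fell by 1.21 ± 0.192 in phase 2 and by 1.25 ± 0.192 in phase 3 (adjusted p = 0.000395 and 9.14e-05). Th, Dbh, Slc18a2, Slc6a2, Ngfr and Uchl1 were not called in any comparison. The median change of these nerve markers relative to fed rats was 0.04 in phase 2 and 0.03 in phase 3 over the whole list.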
